A study of Mus musculus with 9 samples.

Results

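Sterol and fatty acid synthesis genes were examined in mouse 3T3 fibroblasts, an established line of embryonic fibroblasts. The set held 36 genes that were listed by name for their place in sterol and fatty acid metabolism: the oxysterol enzyme gene Ch25h, the enzymes of the mevalonate, sterol and fatty acid routes, their regulators, 1 sterol carrier and 2 exporters. A gene was measured where the array annotation gave its symbol alone to a transcript cluster, the probe group that an array reports as 1 value. Of the 36 genes, 34 were measured that way, out of 19698 such genes on the array. The array levels of Acat2 and Nr1h2 were not analysed here.

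RNA was measured on 9 Affymetrix arrays in 3 groups of 3. The BAF-knockdown group held fibroblasts that expressed, from a retroviral vector, a short hairpin RNA against Brg1 (Smarca4) and Brm (Smarca2), and that were treated with TNF-α at 5 ng/ml for 1 h. The hairpin was driven by a mouse U6 promoter, and stably transduced cells were sorted for high expression of the vector's GFP. Brg1 and Brm are the alternative ATPases of the BAF chromatin remodelling complex. The TNF-α-stimulated control group held cells without the knockdown after the same treatment, and the non-stimulated control group held such cells without TNF-α. No source used here says whether the control cells carried a vector. Non-stimulated knockdown cells were not analysed here, so a difference between knockdown and control cells could not be split into a part that preceded TNF-α and a part that followed it. All values below are log2 signals, so that a difference of 1 is a factor of 2. Replicates are given in the order 1, 2 and 3, and same-numbered arrays deviated together.

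The array medians lay between 7.77 and 7.83, and no pair of arrays held identical values. Smarca4 averaged 10.46 ± 0.19 in BAF-knockdown cells, 11.57 ± 0.04 in TNF-α-stimulated control cells and 11.62 ± 0.05 in non-stimulated control cells (SD, n = 3 each), and it was lower in the knockdown by 1.11 on the log2 scale (limma, adjusted p = 0.00362). Smarca2 averaged 9.21 ± 0.15, 9.57 ± 0.22 and 9.45 ± 0.43 in the same order, and its difference between knockdown and stimulated control did not pass the test (-0.36, limma, adjusted p = 0.734, with the replicate number as a block 0.129). It was lower in all 3 same-numbered pairs, by -0.39, -0.43 and -0.26. The study reports, from quantitative RT-PCR, that the hairpin lowered both transcripts. The NF-κB targets Tnfaip3, Nfkbia and Cxcl2 were higher after TNF-α in control cells by 2.88, 1.38 and 2.92 (limma, adjusted p = 0.000329, 0.000467 and 0.00297). All 8 fibroblast markers lay above 6.67, the highest first quartile of any array, with means over all arrays between 7.47 (Thy1) and 13.98 (Vim). In the other lists, 3 of 7 leukocyte markers, 5 of 8 epithelial and endothelial markers and 4 of 7 adipocyte markers passed that level. None of those averaged above 8.25, though some, such as Cd68 at 8.25, lay above Thy1. Adipoq, which defines adipocytes, was at 5.52.

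Cholesterol is built from acetyl-CoA through mevalonate, squalene and lanosterol, and fatty acids from the same precursor through malonyl-CoA. Transcription of both routes is driven by SREBP factors, which stay in the endoplasmic reticulum with SCAP and INSIG proteins when sterol is plentiful and move to the nucleus when it is scarce. Oxysterols such as 25-hydroxycholesterol, the product of CH25H, hold SREBP in the endoplasmic reticulum through INSIG and are ligands of the LXR receptors, which drive Abca1, Abcg1, Srebf1 and Scd1. Ch25h itself is known as a gene induced by inflammatory and interferon signals. The set therefore holds an inducible enzyme beside 27 measured targets of the SREBP factors and 4 targets of LXR. Scd1 is counted in both lists, so their medians are not fully separate.

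The promoter windows of Ch25h, Hmgcs1 and Cyp51 are shown so that the one induced member can be read beside a pair of synthesis genes. RefSeq (GRCm38.p6) gave windows of 250 bases before and 50 bases after a start for 28 of the 36 listed members, 21 of them SREBP targets. Capitals mark matches on either strand to 7 motifs: the CCAAT box (CCAAT), the GC box (GGGCGG), a sterol element (TCACNCCAC), an NF-κB element (GGANTTCC), an AP-1 element (TGANTCA), an interferon element (GAAANNGAA) and a TATA box (TATAAA). The windows are Ch25h at chr19:34475099-34475398 on the minus strand, Hmgcs1 at chr13:119690101-119690400 on the plus strand and Cyp51 at chr5:4104648-4104947 on the minus strand.
Ch25h: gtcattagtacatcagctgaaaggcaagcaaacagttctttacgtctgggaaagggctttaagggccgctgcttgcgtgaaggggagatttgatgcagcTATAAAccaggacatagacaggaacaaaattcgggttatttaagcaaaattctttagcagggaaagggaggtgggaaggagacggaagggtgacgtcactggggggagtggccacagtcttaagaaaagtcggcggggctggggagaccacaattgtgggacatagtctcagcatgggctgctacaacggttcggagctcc
Hmgcs1: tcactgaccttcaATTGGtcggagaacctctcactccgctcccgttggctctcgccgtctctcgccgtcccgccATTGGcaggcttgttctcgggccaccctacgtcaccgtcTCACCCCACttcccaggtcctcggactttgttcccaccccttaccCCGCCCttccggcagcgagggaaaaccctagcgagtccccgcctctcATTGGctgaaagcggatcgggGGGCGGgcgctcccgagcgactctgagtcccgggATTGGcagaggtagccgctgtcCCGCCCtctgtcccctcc
Cyp51: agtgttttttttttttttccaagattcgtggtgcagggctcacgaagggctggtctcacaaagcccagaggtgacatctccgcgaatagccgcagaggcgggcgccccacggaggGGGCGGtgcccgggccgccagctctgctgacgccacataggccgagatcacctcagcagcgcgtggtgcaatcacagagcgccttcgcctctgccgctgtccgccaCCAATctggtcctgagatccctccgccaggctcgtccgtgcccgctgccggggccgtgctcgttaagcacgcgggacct
The Ch25h window held 1 of the 7 motifs, a TATAAA whose first base lies at -151 from the start. The Hmgcs1 window held the sterol element at -137, CCAAT boxes at -237, -176, -45 and 10, and GC boxes at -92, -24 and 32. The Cyp51 window held a GC box at -135 and a CCAAT box at -29. A gene with several windows was counted once, with a match if any of its windows held the motif. A CCAAT box was found for 17 of 21 SREBP targets (81.0%), against 41.1% of 27025 genes, and a GC box for 17 of 21 (81.0%), against 38.2% of genes. The sterol element was found for 1 of the 21 targets, against 1.4% of genes, and the TATA box for 0 of 21, against 15.7% of genes. The NF-κB element was found for 1 of 21 targets (5.5% of genes), the AP-1 element for 2 (9.0% of genes) and the interferon element for 1 (9.8% of genes). These are matches of letters in a short window, not measured binding sites. Each motif was searched only in the letters given. A site of other letters or another length, such as a longer NF-κB site, was not counted, so no match does not mean no site.

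Ch25h, which encodes cholesterol 25-hydroxylase, was the one member whose difference after TNF-α passed the test with the arrays paired by replicate number. Its transcript cluster, 10467136, was at 8.97, 10.33 and 8.90 in BAF-knockdown cells, at 10.39, 11.28 and 10.00 in TNF-α-stimulated control cells and at 8.08, 8.65 and 7.69 in non-stimulated control cells. Each stimulated control array lay above each non-stimulated one, and the knockdown arrays lay between their same-numbered controls. The group means were 9.40 ± 0.80, 10.56 ± 0.66 and 8.14 ± 0.49 (SD, n = 3 each). The plot of levels on each array shows Ch25h beside 8 genes of the synthesis routes and their regulators.

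**Figure D1:**
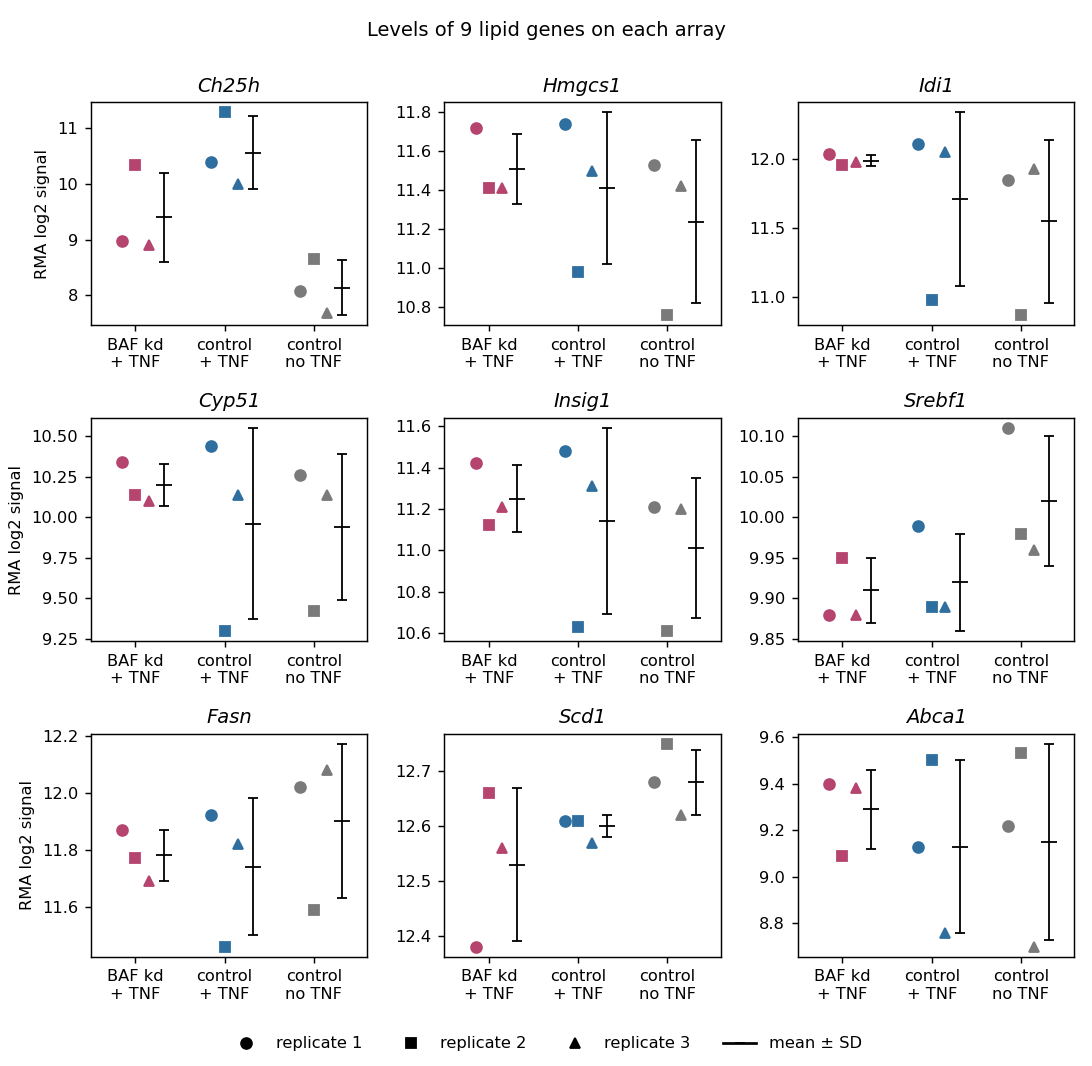
RMA log2 signal of 9 genes on each array, in BAF-knockdown cells with TNF-α, control cells with TNF-α and control cells without it (left to right in each panel). Symbols give the replicate and black bars the mean ± SD of 3 arrays. Ch25h differs between groups, whereas Hmgcs1, Idi1, Cyp51, Insig1 and Fasn have their lowest array of each control group at replicate 2.

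The first comparison asks what 1 h of TNF-α did in control cells. Ch25h was higher by 2.42 ± 0.45 (SE, 95% interval 1.39 to 3.44), which is 5.35-fold and the sixth largest difference in size among all genes tested. The difference was 2.32, 2.63 and 2.31 between same-numbered arrays. It did not pass limma without pairing (adjusted p = 0.191) and passed limma with the replicate number as a block (adjusted p = 0.000334, interval 2.13 to 2.71). The blocked call was lost without the arrays of number 1 (adjusted p = 0.0818). In RNA from a whole culture, more cells that express a gene and more RNA per cell cannot be told apart.

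No other member passed either fit after TNF-α. Of the 34 members, 0 passed without pairing, against 0.137% of all genes, and 1 passed with the block, against 0.396%. At an unadjusted p under 0.05 Ch25h was again the only member, against 3.07% of all genes. It was also the only member past 0.3 in size, against 1.51% of genes. The groups did not overlap for 3 members (8.82%, against 5.97% of genes): Ch25h, higher, and Ebp and Scd1, lower by 0.07 and 0.09.

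The SREBP targets had a median difference of -0.02 after TNF-α, with 12 of 27 above 0 and 15 below, beside a median of 0 and 48.6% above 0 for all genes. They ranged from -0.18 (Dhcr7) to 0.27 (Stard4, a cytosolic sterol carrier). The 6 measured mevalonate enzymes had a median of 0.02, and the 11 squalene and sterol enzymes one of 0.00. Of the 8 fatty acid enzymes 7 were lower in all 3 same-numbered pairs, where 3172 of 19698 genes were, and their median difference was -0.08. Elovl6, which lengthens saturated chains, was the exception at 0.11. None of these differences passed a test.

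The LXR targets gave a median difference of -0.05 after TNF-α. Abca1, the cholesterol exporter that loads apolipoprotein A-I, was at 9.40, 9.09 and 9.38 in BAF-knockdown cells, at 9.13, 9.50 and 8.76 in TNF-α-stimulated control cells and at 9.22, 9.53 and 8.70 in non-stimulated control cells. Its difference after TNF-α was -0.02 ± 0.23 (interval -0.55 to 0.51), so a change of a size within that interval was not excluded. Abcg1, which passes cholesterol to lipoprotein particles, differed by 0.02 (interval -0.10 to 0.14) and was the lowest member, at 7.97 over all arrays.

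**Figure D2:**
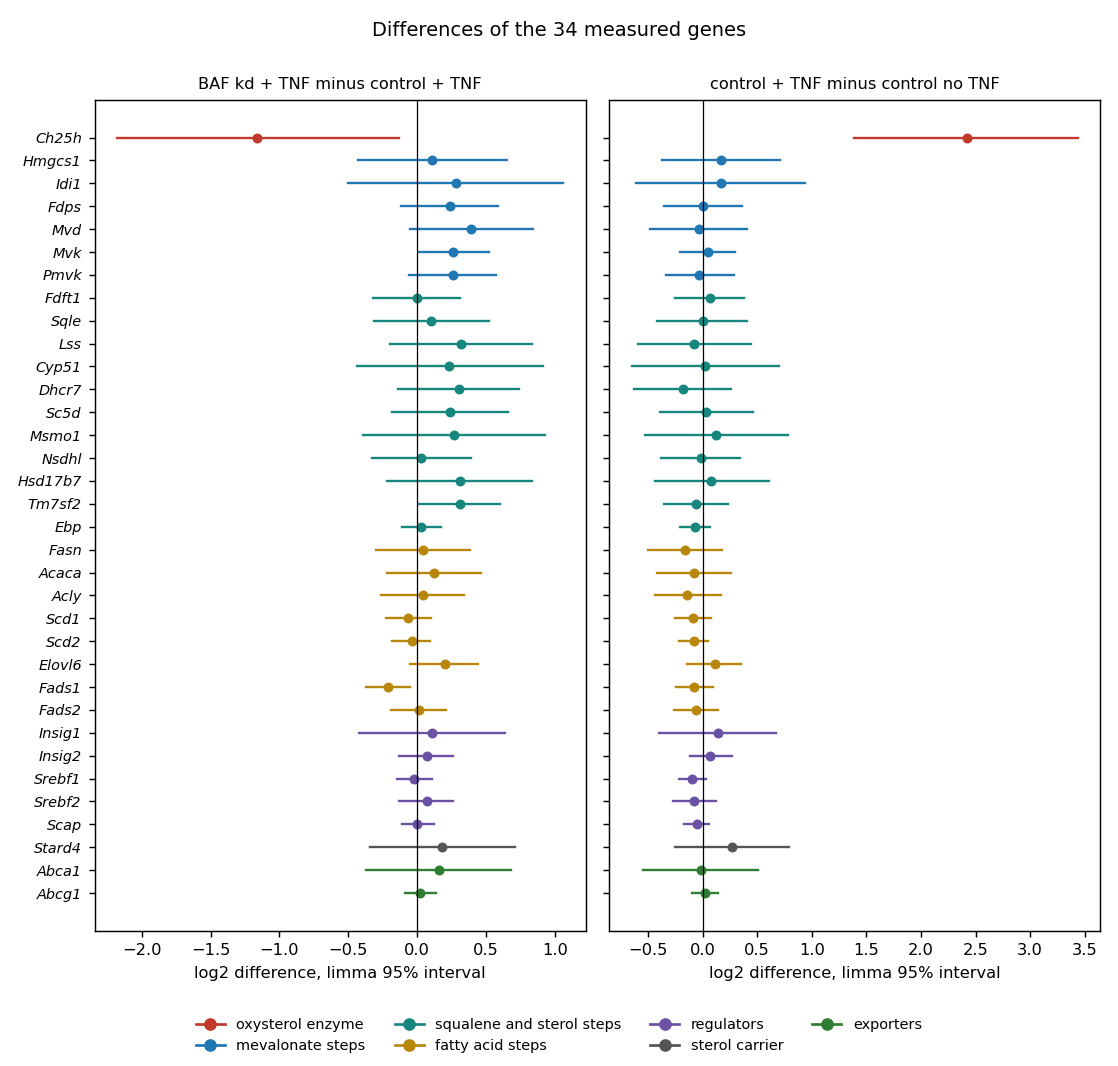
Log2 differences of the 34 measured genes with limma 95% intervals, coloured by role, for BAF-knockdown against control cells, both with TNF-α (left), and for control cells with against without TNF-α (right). Ch25h stands at -1.16 on the left and 2.42 on the right. On the right the other genes lie between -0.18 and 0.27.

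The second comparison asks how BAF-knockdown cells differed from control cells after TNF-α. It shares the stimulated control arrays with the first comparison, so values of the 2 are given side by side and not as independent results. Ch25h was lower in the knockdown by 1.16 on the log2 scale (SE 0.45, interval -2.18 to -0.13), which is 2.23-fold. The arrays of the groups overlapped, since the knockdown array of replicate 2 lay above the control array of replicate 3, and the same-numbered differences were -1.42, -0.95 and -1.10. The difference passed limma with the block (adjusted p = 0.00386, interval -1.45 to -0.86) and not without it (adjusted p = 0.502). The blocked call was lost without number 1 (adjusted p = 0.148) or number 3 (adjusted p = 0.0892).

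Ch25h in the knockdown still lay above non-stimulated control cells. The difference was 1.26 ± 0.45 (SE), or 2.40-fold, with same-numbered differences of 0.90, 1.68 and 1.21 and no overlap of the groups. It passed with the block (adjusted p = 0.0019) and not without it (adjusted p = 0.296), and the blocked call was lost without number 1 (adjusted p = 0.0625). Without knockdown replicate 2 the difference was 0.80. Set against the log2 difference between the 2 control groups, the knockdown held 52.2% of it, and 38.7%, 63.8% and 52.4% within numbers 1, 2 and 3.

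Besides Ch25h, no member passed either fit between knockdown and stimulated control. Of the 34 members 0 passed without pairing (0.137% of all genes), and Ch25h alone passed with the block (3.31% of all genes). At an unadjusted p under 0.05 there were 4 (11.8%, against 8.43% of genes): Ch25h and Fads1, lower, and Tm7sf2 and Mvk, higher. The groups did not overlap for 4 (11.8%, against 10.1% of genes), with Fdps, Dhcr7 and Pmvk higher and Fads1 lower. Past 0.3 in size stood 6 (17.6%, against 5.14% of genes), Ch25h lower and Mvd, Lss, Hsd17b7, Tm7sf2 and Dhcr7 higher.

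The 5 higher genes are enzymes of the mevalonate and sterol routes. Mvd, which makes isopentenyl diphosphate, was at 10.31, 10.54 and 10.10 in BAF-knockdown cells, at 10.14, 9.52 and 10.12 in TNF-α-stimulated control cells and at 10.16, 9.65 and 10.06 in non-stimulated control cells. Lss, which closes the sterol rings as lanosterol, was at 10.40, 10.50 and 10.33, against 10.41, 9.64 and 10.24 in stimulated and 10.48, 9.73 and 10.30 in non-stimulated control cells. In both genes the stimulated control array of replicate 2 stood below all knockdown arrays, while the other 2 lay among or close to them. The differences were 0.39 ± 0.20 for Mvd and 0.32 ± 0.23 for Lss (SE, limma, adjusted p = 0.677 and 0.832).

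Hsd17b7, a ketoreductase of sterol demethylation, was at 11.05, 10.69 and 10.69 in BAF-knockdown cells, at 10.91, 10.01 and 10.59 in TNF-α-stimulated control cells and at 10.69, 10.11 and 10.46 in non-stimulated control cells. Dhcr7, which makes cholesterol from 7-dehydrocholesterol, was at 9.79, 9.67 and 9.64 in BAF-knockdown cells, against 9.61, 8.97 and 9.61 in stimulated and 9.89, 9.28 and 9.58 in non-stimulated control cells. Tm7sf2, a sterol C14-reductase, was at 8.55, 9.06 and 9.02 in BAF-knockdown cells, against 8.58, 8.48 and 8.66 in stimulated and 8.71, 8.54 and 8.64 in non-stimulated control cells. Tm7sf2 differed from the other 4 in that replicates 2 and 3 of the knockdown were both high. The differences of Hsd17b7, Dhcr7 and Tm7sf2 were 0.31, 0.30 and 0.31 (limma, adjusted p = 0.848, 0.797 and 0.558). These 5 differences were smaller without some arrays of number 2. Without stimulated control replicate 2 they were 0.19 for Mvd, 0.09 for Lss, 0.06 for Hsd17b7, 0.09 for Dhcr7 and 0.26 for Tm7sf2. Without all arrays of number 2 they were 0.08, 0.04, 0.12, 0.10 and 0.17 in the same order.

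The SREBP targets as a list had a median difference of 0.18 between knockdown and stimulated control, with 23 of 27 above 0, beside a median of 0.01 and 54.5% above 0 for all genes. It rested on the arrays of number 2. Between arrays of number 1 the median was -0.03 and 9 of 27 were higher in the knockdown, and between arrays of number 3 it was again -0.03 with 9 of 27 higher. Between arrays of number 2 the median was 0.50, 26 of 27 were higher and 21 of 27 were past 0.3, where 5.45% of all genes were. The list median was -0.05 without stimulated control replicate 2, and also without replicate 2 in all groups. Mevalonate enzymes had medians of 0.01, 0.65 and 0.02 in numbers 1, 2 and 3, squalene and sterol enzymes -0.03, 0.58 and -0.01, and fatty acid enzymes -0.11, 0.19 and -0.05.

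**Figure D3:**
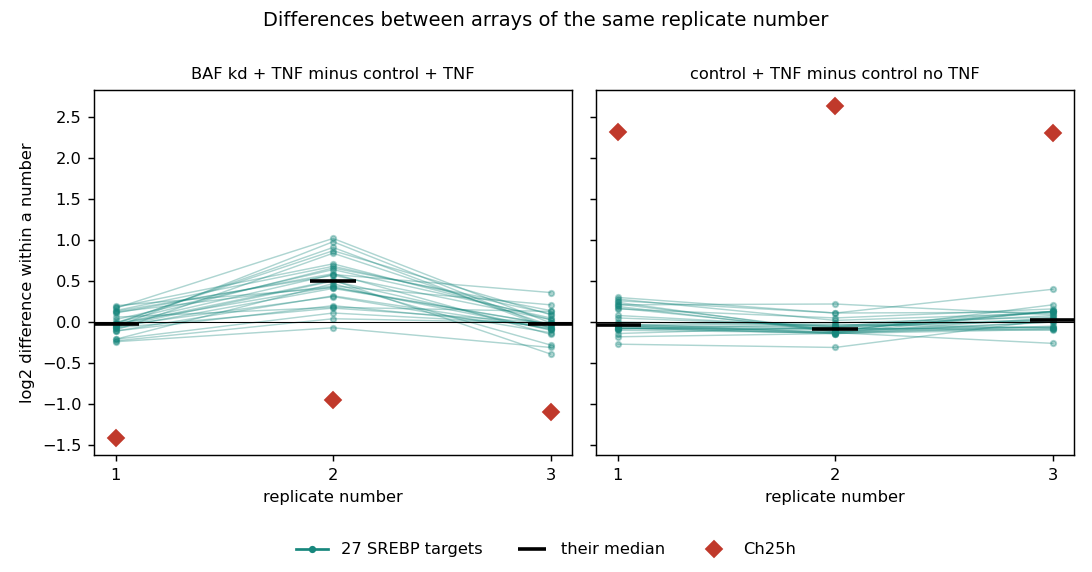
Log2 differences between arrays of the same replicate number, for BAF-knockdown against control cells with TNF-α (left) and control cells with against without TNF-α (right). Green points joined by lines are the 27 SREBP targets, black bars their medians and red diamonds Ch25h. On the left the median is -0.03, 0.50 and -0.03 in numbers 1, 2 and 3, while Ch25h is at -1.42, -0.95 and -1.10.

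In the mean over the list, the difference in number 2 stood in the control arrays. The mean over the 27 SREBP targets was 11.24, 11.24 and 11.15 on the BAF-knockdown arrays, 11.26, 10.74 and 11.18 on the TNF-α-stimulated control arrays and 11.23, 10.80 and 11.13 on the non-stimulated control arrays. Replicate 2 of each control group was thus low, with or without TNF-α, and replicate 2 of the knockdown was not. It was the lowest of its group for 7 of 27 targets (25.9%) in the knockdown, for 25 of 27 (92.6%) in stimulated controls and for 23 of 27 (85.2%) in non-stimulated controls. The same shares over all genes were 32.5%, 29.5% and 30.8%. In the knockdown, replicate 2 was also the highest of its group for 14 of 27 targets (51.9%), against 29.4% of all genes. For some targets part of the gap thus lay in the knockdown array. In Mvk, replicate 2 minus the mean of replicates 1 and 3 was 0.37 in the knockdown and -0.23 in stimulated controls. In both control groups at once it was the lowest for 23 of 27 targets (85.2%) and for 17.7% of all genes.

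Idi1, the isomerase that makes dimethylallyl diphosphate, had the largest such gap. It was at 12.04, 11.96 and 11.98 in BAF-knockdown cells, at 12.11, 10.98 and 12.05 in TNF-α-stimulated control cells and at 11.85, 10.87 and 11.93 in non-stimulated control cells. Replicate 2 minus the mean of replicates 1 and 3 was -0.05, -1.10 and -1.02 in the 3 groups, and a second transcript cluster of Idi1 gave -0.07, -1.06 and -1.05. Msmo1, the sterol C4-methyl oxidase, was at 12.22, 12.23 and 12.22 in BAF-knockdown cells, against 12.23, 11.32 and 12.30 in stimulated and 12.08, 11.27 and 12.14 in non-stimulated control cells. Cyp51, the lanosterol demethylase, was at 10.34, 10.14 and 10.10 in BAF-knockdown cells, against 10.44, 9.30 and 10.14 in stimulated and 10.26, 9.42 and 10.14 in non-stimulated control cells. The Idi1 and Msmo1 knockdown arrays all lay within the range of control replicates 1 and 3, and the Cyp51 ones did too save for replicate 3, which lay just below.

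Hmgcs1, which makes HMG-CoA, was at 11.72, 11.41 and 11.41 in BAF-knockdown cells, at 11.74, 10.98 and 11.50 in TNF-α-stimulated control cells and at 11.53, 10.76 and 11.42 in non-stimulated control cells. Sqle, squalene epoxidase, was at 12.01, 11.85 and 11.82 in BAF-knockdown cells, against 12.08, 11.44 and 11.85 in stimulated and 12.08, 11.48 and 11.82 in non-stimulated control cells. Both had the low replicate 2 in the controls and no group difference past a test: 0.11 and 0.10 for knockdown against stimulated control (limma, adjusted p = 0.961 and 0.949) and 0.17 and 0.00 after TNF-α (adjusted p = 1.0 for both).

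**Figure D4:**
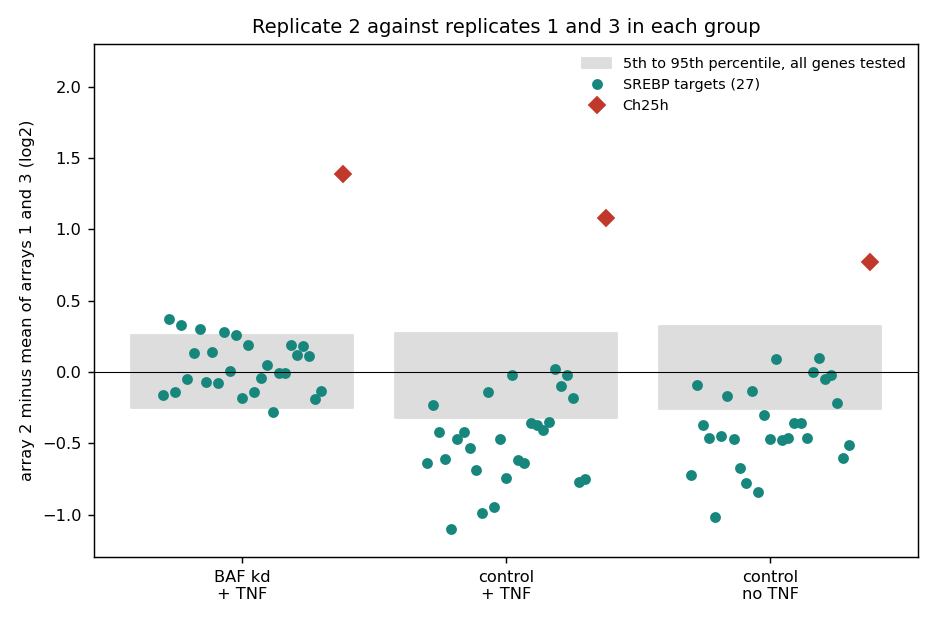
Replicate 2 minus the mean of replicates 1 and 3 in log2 units, for the 27 SREBP targets (green) and Ch25h (red) in each group. Grey bands run from the 5th to the 95th percentile of all genes tested. In the knockdown 1 target lies below its band, in TNF-α-stimulated controls 20 and in non-stimulated controls 18.

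Over the SREBP targets the median of replicate 2 minus the mean of replicates 1 and 3 was 0.01 in BAF-knockdown cells, -0.47 in stimulated controls and -0.45 in non-stimulated controls. For Ch25h the same value was positive in every group, at 1.39, 1.08 and 0.77. Fibroblast markers also moved with replicate 2, upward. Replicate 2 was the highest array for 4 of 8 in the knockdown, 8 of 8 in stimulated controls and 6 of 8 in non-stimulated controls. Of all 19698 genes it was the highest for 5793, 7922 and 6692 in the same order. Their mean ran from 11.39 to 11.53 on the BAF-knockdown arrays, from 11.57 to 11.93 on the stimulated and from 11.68 to 11.99 on the non-stimulated control arrays. Leukocyte, epithelial and endothelial, and adipocyte lists spanned 6.64 to 7.01 on all arrays. Replicate 2 was the highest for 1, 5 and 4 of 7 leukocyte markers in the same group order. It was so for 1, 4 and 2 of 8 epithelial and endothelial markers and 2, 4 and 1 of 7 adipocyte markers. Leukocyte markers thus shared the upward move in both control groups, though only 3 of 7 averaged above the first quartile. The leukocyte median of replicate 2 minus the mean of replicates 1 and 3 was 0.05 in both control groups, against 0.2 and 0.14 for fibroblast markers. In stimulated and non-stimulated controls it was 0.07 and -0.03 for epithelial and endothelial markers, and 0.08 and 0.0 for adipocyte markers. Smarca4 was at 10.50, 10.64 and 10.25 in the knockdown, so its replicate 2 was the least reduced. Each number holds 1 array per group, so that the pattern has no replicate of its own and no test, and the part of the marker genes and of the knockdown's depth in it was not tested.

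Among the regulators, Insig1 and Srebf2 had their lowest array of each control group at replicate 2. Replicate 2 minus the mean of replicates 1 and 3 was -0.77 and -0.6 for Insig1 in stimulated and non-stimulated controls. For Srebf2 it was -0.21 and -0.23, not below the 5th percentile of all genes (-0.32 and -0.26). Insig1, itself an SREBP target whose protein retains SCAP, was at 11.42, 11.12 and 11.21 in BAF-knockdown cells, at 11.48, 10.63 and 11.31 in TNF-α-stimulated control cells and at 11.21, 10.61 and 11.20 in non-stimulated control cells. Srebf2, the factor most tied to sterol synthesis, was at 11.75, 11.83 and 11.90 in BAF-knockdown cells, against 11.83, 11.61 and 11.83 in stimulated and 11.92, 11.68 and 11.90 in non-stimulated control cells. Srebf1, the factor most tied to fatty acid synthesis, was at 9.88, 9.95 and 9.88 in BAF-knockdown cells, against 9.99, 9.89 and 9.89 in stimulated and 10.11, 9.98 and 9.96 in non-stimulated control cells. Insig1, Srebf2 and Srebf1 differed by 0.11, 0.07 and -0.02 between knockdown and stimulated control and by 0.14, -0.08 and -0.10 after TNF-α, with no call in either fit. Insig2 and Scap, which hold and escort SREBP, differed by 0.07 at most in size.

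Fatty acid genes varied less between control arrays than sterol genes. Their median SD was 0.11 in BAF-knockdown cells, 0.16 in stimulated and 0.10 in non-stimulated controls, whereas that of the squalene and sterol enzymes was 0.12, 0.36 and 0.30 in the same order. Fasn, the fatty acid synthase, was at 11.87, 11.77 and 11.69 in BAF-knockdown cells, at 11.92, 11.46 and 11.82 in TNF-α-stimulated control cells and at 12.02, 11.59 and 12.08 in non-stimulated control cells. Scd1, a stearoyl-CoA desaturase, was at 12.38, 12.66 and 12.56 in BAF-knockdown cells, against 12.61, 12.61 and 12.57 in stimulated and 12.68, 12.75 and 12.62 in non-stimulated control cells. Scd2, its close relative, was at 13.36, 13.54 and 13.48 in BAF-knockdown cells, against 13.56, 13.43 and 13.50 in stimulated and 13.61, 13.55 and 13.58 in non-stimulated control cells. The control replicate 2 was low in Fasn, whereas in Scd1 it was not. Between knockdown and stimulated control the 3 genes differed by 0.04, -0.07 and -0.04 (limma, adjusted p = 0.979, 0.904 and 0.933).

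Fads1, the delta-5 desaturase of polyunsaturated fatty acids, was the member besides Ch25h that was lower in the knockdown in all 3 pairs. It was at 12.53, 12.62 and 12.35 in BAF-knockdown cells, at 12.77, 12.69 and 12.66 in TNF-α-stimulated control cells and at 12.85, 12.77 and 12.74 in non-stimulated control cells. All knockdown arrays lay below all control arrays. Against stimulated control the difference was -0.21 ± 0.07 (SE, limma, adjusted p = 0.418, with the block 0.138), and against non-stimulated control it was -0.29 (adjusted p = 0.13, with the block 0.0346). The blocked call was lost without number 1 or number 3 (adjusted p = 0.413 and 0.222).

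The remaining 12 measured enzymes and carriers were Fdps, Mvk and Pmvk of the mevalonate route, Fdft1, Sc5d, Nsdhl and Ebp of the sterol route, Acaca, Acly, Elovl6 and Fads2 of the fatty acid route, and Stard4. Between knockdown and stimulated control they differed by 0.00 (Fdft1) to 0.26 (Mvk and Pmvk), and after TNF-α by -0.14 (Acly) to 0.27 (Stard4), with none called in either fit.

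The third comparison sets BAF-knockdown cells with TNF-α against non-stimulated control cells and so holds both changes at once. Of the 34 members 0 passed without pairing (1.12% of all genes) and 2 passed with the block (5.34% of genes), Ch25h higher and Fads1 lower. At an unadjusted p under 0.05 there were 4 (11.8%, against 12.0% of genes). The groups did not overlap for 11 (32.4%, against 14.0% of genes), 8 of them higher in the knockdown. The SREBP targets had a median of 0.24, and -0.01, 0.40 and 0.03 within numbers 1, 2 and 3. The LXR targets had medians of -0.03 here and 0.00 against stimulated control.

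Other genes of the same pathways were counted beside the members, 40 of 49 listed being measured. After TNF-α none passed either fit, and none passed an unadjusted p under 0.05. The largest difference in size was 0.15, for Mlx, a partner of the carbohydrate response factor. Between knockdown and stimulated control none passed without pairing (before adjustment 7 of 40 had a p under 0.05, of which 6 were lower, against 8.43% of all genes), and with the block 3 of 40 were lower, where 3.31% of all genes were called in either direction. Cyp39a1, an oxysterol 7α-hydroxylase, was at 8.55, 9.34 and 8.71 in BAF-knockdown cells, at 9.89, 9.93 and 10.08 in TNF-α-stimulated control cells and at 10.01, 10.07 and 9.93 in non-stimulated control cells. It was lower in the knockdown by 1.10 on the log2 scale against stimulated control (limma, adjusted p = 0.065, with the block 0.00929) and by 1.14 against non-stimulated control (adjusted p = 0.0239, with the block 0.00518). The fatty acid binding protein gene Fabp4 was lower by 0.81 against stimulated control (adjusted p = 0.127, with the block 0.00169) and the triglyceride synthesis gene Dgat2 by 0.57 (adjusted p = 0.135, with the block 0.0312). Against non-stimulated control, Fabp4 and Dgat2 differed by -0.75 and -0.5 (limma, adjusted p = 0.0916 and 0.123, with the block 0.00156 and 0.0364). Acss2, which makes acetyl-CoA from acetate, was higher in the knockdown by 0.35 against non-stimulated control (adjusted p = 0.0496, with the block 0.0233) and by 0.23 against stimulated control (adjusted p = 0.283). The calls on these genes were not stable: the blocked calls against stimulated control were lost without number 1 in Cyp39a1, Fabp4 and Dgat2 (adjusted p = 0.273, 0.15 and 0.423) and without number 3 in Cyp39a1 and Dgat2 (0.147 and 0.292). Against non-stimulated control and without pairing, Acss2 lost its call whichever array was left out, and Cyp39a1 lost it for 6 of the 9 arrays, all but knockdown replicate 2 and stimulated control replicates 2 and 3. The stability of the blocked calls against non-stimulated control is not given here.

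The low control replicate 2 was found in part of those genes. Lbr, a second sterol C14-reductase, had replicate 2 minus the mean of replicates 1 and 3 at -0.22 in the knockdown, -0.57 in stimulated and -0.58 in non-stimulated controls. For Tmem97, a sterol-responsive membrane protein gene, the values were 0.13, -0.48 and -0.29, and for Aacs, acetoacetyl-CoA synthetase, 0.11, -0.42 and -0.44. Replicate 2 was the lowest in both control groups for 12 of the 40 genes (30.0%), against 17.7% of all genes. The list went both ways. In stimulated controls replicate 2 was the lowest for 15 and the highest for 16 of 40, and in non-stimulated controls for 13 and 14. The list medians of replicate 2 minus the mean of replicates 1 and 3 were 0.01 and 0.03 in these groups. Mylip stood high there, at 0.54 and 0.47.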

How the data were processed

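RNA of 9 cultures was hybridised to Affymetrix mouse gene arrays. The deposited values, which the authors made by RMA per the labels, are log2 signals of 27024 transcript clusters, and the study's reporting names the affy package of Bioconductor for the array data. The array annotation's build and any batch dates are not given in the sources used here. RMA subtracts background, quantile normalizes all arrays together and summarises probes, so a shift shared by all genes would be removed, and single probes, detection calls and read depth cannot be recovered. The number of arrays limits the precision.

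A cluster was used where the platform annotation gave it 1 symbol (21319 clusters, 1430 with several and 4275 with none), and the cluster with the highest mean stood for a gene with several (930 genes). The differences between groups were fitted over all 19698 genes and 9 arrays with limma 3.58.1 in R 4.3.3, 1 mean per group, with Benjamini-Hochberg adjustment over all genes and calls at an adjusted p under 0.05. All p-values are two-sided. The code was tested on simulated data. The study's methods give the replicates as independent experiments of different days. Deviations from group means correlated at 0.21 to 0.724 for 9 same-numbered pairs and -0.566 to 0.011 for 18 others. Such deviations cancel within a group, so the low values of the 18 others are not separate evidence for pairing. The same-numbered values ran from 0.21 to 0.388 between knockdown and control arrays, and from 0.579 to 0.724 between the control groups. Arrays of 1 number were therefore treated as paired in a further fit, with the replicate number as a block. The main fit ignored this pairing, and the SEs, unadjusted counts and intervals are from it unless the block is named. For members and the other pathway genes, the fit with the block is given beside the main one where it changed a call.

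Members and lists were chosen with earlier results of these data known. Values on every array are given for Ch25h, Hmgcs1, Sqle, Insig1, Srebf1, Srebf2, Fasn, Scd1, Scd2 and Abca1 and for members called in either fit, or past 0.3 in size, in the first or second comparison. Idi1, Msmo1, Cyp51 and Fads1 were added after their values were seen. Promoter windows are from RefSeq. Alternatives changed the filter, normalization, array weights, prior, groups fitted, choice of cluster and test, or left out arrays.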

Additional observations from a re-analysis of the deposited data

How the results depend on the processing

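The median difference of the SREBP targets moved by less than 1 SD of replicates under every alternative. The low control replicate 2 widens that SD, so this does not show a stable difference. The SD of the list's array means was 0.05 in BAF-knockdown cells, 0.28 in stimulated and 0.22 in non-stimulated controls. It ranged from -0.13 to 0.15 when an array or number was left out of the TNF-α comparison, from -0.05 to 0.28 for knockdown against stimulated control and from 0.02 to 0.30 for knockdown against non-stimulated control. It turned negative in knockdown against stimulated control without stimulated control replicate 2 (-0.05) or without number 2 (-0.05), and was 0.03 with array weights. After TNF-α it was 0.15 without stimulated control replicate 2 and -0.13 without non-stimulated control replicate 2. Ch25h kept its direction under all alternatives. Mvd, Lss, Hsd17b7, Tm7sf2 and Dhcr7 stayed higher in the knockdown and uncalled in all 115 alternative fits of these genes, with ranges when arrays were left out of 0.08 to 0.59, 0.04 to 0.48, 0.06 to 0.51, 0.17 to 0.47 and 0.09 to 0.44.

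The replicate block raised the members called to 1, 1 and 2 in the TNF-α comparison, knockdown against stimulated control and knockdown against non-stimulated control. With the block Ch25h was called at 2.42, -1.16 and 1.26, and its adjusted p over all alternatives ran from 0.000334 to 1.0, from 0.00386 to 0.898 and from 0.0019 to 0.672. When 1 array was left out, Ch25h ranged from 2.06 to 2.70, from -1.62 to -0.80 and from 0.80 to 1.52, with no member called. Under the block it was called without number 2 in all 3 comparisons (2.31, -1.26 and 1.06), without number 3 after TNF-α (2.47) and against non-stimulated control (1.29) and in none without number 1, and members called ran from 0 to 1, from 0 to 1 and from 0 to 2. Chosen after seeing the data, a fit without replicate 2 in all groups called 1 member after TNF-α, Ch25h (2.31, adjusted p = 0.0341). The methods' t-test, which they name for induction, called Ch25h alone after TNF-α at its own threshold (2.42) and no member after Benjamini-Hochberg. The block changed no other call of a member than those of Ch25h and Fads1.

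Counts over all genes moved more. They were 27, 27 and 220 in the 3 comparisons, and 78, 652 and 1052 with the block. Fitting only the groups compared gave 15, 8 and 25, array weights 41 and 62 in the first and second comparison, and the fit without replicate 2 in all groups 16 and 110. The methods' t-test gave 115 in the first at its own threshold, and 1, 0 and 1 in the 3 after Benjamini-Hochberg. In the second, an unadjusted p under 0.05 of that test with a difference past 0.3 gave 433, whereas the methods name that difference alone, which 1013 genes and 6 members passed. Leaving out 1 array gave 9 to 28, 6 to 154 and 26 to 464, with the highest count each time without knockdown replicate 2. Leaving out a number under the block gave 0 to 76, 0 to 648 (100 without number 3) and 22 to 1086, the lowest each time without number 1 and the highest without number 2. The causes were not tested. With 3 arrays a group the intervals are wide, and a true difference anywhere within an interval given was not excluded. All 34 members averaged above the first quartile of genes.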
